A study of Mus musculus with 24 samples.

Results

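Basophils lacking tristetraprolin (TTP, encoded by Zfp36) were set against wild-type (WT) basophils 1 hour after antigen and RNA label had been washed away. The comparison used 3 TTP-KO and 3 WT libraries, 6 of the 24 libraries of the series, chosen by the genotype and time in their column names. For each gene the total RNA was split into a labelled and an unlabelled part, and each genotype difference was assigned to the part or parts that held it. The series followed both genotypes at 0, 1, 2 and 4 hours after the wash, to study how loss of TTP affects mRNA stability. Cells of both genotypes were mouse bone marrow cells cultured for 7 days with 0.3 ng/mL interleukin 3 and enriched for CD49b+ cells with magnetic beads. On day 6 both received 1 µg/mL IgE against the hapten TNP and 150 µM 4-thiouridine (s4U). They were then exposed for 1.5 hours to 10 ng/mL TNP-coupled ovalbumin with s4U present, washed, and kept for 1 hour without antigen or s4U. The TTP-KO allele, the strain and the age of the mice are not described in the labels. The labels do not tie a replicate to its own mouse or culture either, so every p-value refers to variation among these libraries, which may be technical.

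TTP is a zinc finger protein that binds AU-rich elements in the 3′ untranslated regions of mRNAs and recruits deadenylases, which shortens the life of many cytokine transcripts. Its best known target, described in mouse macrophages, is the mRNA of tumour necrosis factor. Basophils are rare granulocytes that release histamine, interleukin 4, interleukin 13 and chemokines when antigen cross-links the IgE on their surface. s4U enters newly made RNA, and alkylation makes it read as C in place of T, so that the reads with such changes give the labelled share of each transcript.

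The 1 hour libraries held 19842418, 17259847 and 15181668 reads in TTP-KO and 16689088, 17436585 and 14689038 reads in WT. The labelled share of all reads was 11.7, 11.3 and 12.8% in TTP-KO, against 8.75, 9.76 and 8.82% in WT, so the 3 TTP-KO libraries lay above the 3 WT libraries. The labelled percentage of the median gene was 12.2, 10.6 and 11.6 in TTP-KO and 5.58, 7.92 and 7.01 in WT, lowest in WT library A. The same order held at 0 hours, where the median gene was 14.64 to 19.83% labelled in TTP-KO and 9.74 to 11.19% in WT. Values are given below in CPM, that is reads per gene scaled to a common library total and not divided by transcript length. Labelled CPM is the CPM times the deposited new-to-total ratio, and unlabelled CPM is the rest. Unlabelled RNA comprises RNA made while s4U was absent and RNA made in its presence without a recorded conversion, which the ratio does not separate. Ccl3, a chemokine mRNA, was 9.57% labelled in TTP-KO and 4.05% in WT even at 0 hours, directly after the exposure to antigen with s4U. Whether s4U was present from day 6 as labelled, and how completely the ratio counts RNA made in its presence, could not be checked here, so the labelled part is the deposited estimate and not a measure of all RNA made during labelling.

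Basophil markers were present in all 6 libraries. Mcpt8, a basophil granule protease, had 14454 to 15029 CPM in TTP-KO and 12800 to 14307 CPM in WT. The summed basophil list ran from 80691 to 86866 CPM in TTP-KO and from 81006 to 83997 CPM in WT, and 0 of its 44 tested members were called. Of all genes tested in total RNA 0.502% were called, so a count of 0 in a list of this size says little. The summed monocyte and macrophage list was higher in TTP-KO, at 2550.4 to 2834.0 CPM against 846 to 934 CPM in WT. The summed dendritic and B cell list was also higher, at 638 to 737 CPM in TTP-KO against 454 to 531 CPM in WT, and 2 of its 14 tested members, Cd74 and H2-Aa, were called higher. The H2-Aa call was lost whichever of the 6 libraries was left out (log2 0.71 to 0.83). Mast cell markers summed to 2394 to 2842 CPM in TTP-KO and 2488 to 3080 CPM in WT, and neutrophil markers to 3982 to 4716 CPM in TTP-KO and 4016 to 4544 CPM in WT. For these lists the ranges of the genotypes overlapped. Eosinophil markers summed to 215 to 283 CPM in TTP-KO and 207 to 216 CPM in WT, and NK and T cell markers to 84.7 to 100.4 CPM in TTP-KO and 100.6 to 130.9 CPM in WT. Ncr1, an NK cell receptor, was listed at 0 in all 6 libraries. In bulk samples fewer cells of a type and less RNA per cell cannot be told apart.

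Zfp36 itself (ENSMUSG00000044786) had 36.0, 44.4 and 58.5 CPM in TTP-KO, against 147, 128 and 104 CPM in WT, with no overlap. Its mRNA was not absent, and 3′ tags can lie outside the disrupted part of a gene, so this level does not check the genotype. The difference lay in the unlabelled part, which had 24.3, 42.3 and 50.5 CPM in TTP-KO and 147, 128 and 104 CPM in WT. Unlabelled Zfp36 was lower by a log2 change of -1.72 ± 0.27 (SE, limma, adjusted p = 6.57e-05). Labelled Zfp36 had 11.8, 2.12 and 7.99 CPM in TTP-KO and was listed at 0 in all 3 WT libraries, a change of 2.83 ± 0.85 on the log2(CPM + 1) scale that did not pass (limma, adjusted p = 0.155). The changes of the parts had opposite signs, and the test of labelled against unlabelled passed (log2 4.55 ± 0.85, against a median of 0.47 over all genes, limma, adjusted p = 0.0205). That call was lost without TTP-KO library A (3.83), without TTP-KO library C (4.59), without WT library A (4.43) and without WT library B (4.53). Zfp36 was the only gene called in total RNA for which this test passed.

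Of 12936 genes tested in total RNA, 65 were called at an adjusted p under 0.05 by edgeR's quasi-likelihood test, or 0.502% of the genes tested. They comprised 52 higher in TTP-KO (0.402%) and 13 lower (0.1%). Scaling by library size alone gave 48 higher and 23 lower, and DESeq2 gave 112 higher and 87 lower. Parts were tested with limma in the 7983 genes with a mean of at least 5 CPM and a ratio in every library. The labelled part differed for 43 genes (0.539%), of which 40 were higher (0.501%) and 3 lower in TTP-KO (0.0376%). The unlabelled part differed for 50 genes (0.626%), with 25 higher (0.313%) and 25 lower (0.313%). When the unlabelled part was given its own scaling, 31 were higher and 15 lower. The labelled part moved by a different fold from the unlabelled part in 8 genes (0.1%), all with more labelling in TTP-KO. Over all genes tested in parts, the median of this log2 difference was itself 0.47. With library medians centred 4 genes were called, 3 higher and 1 lower.

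The calls in the parts met only in part. Of the 43 genes called in the labelled part, 13 were also called in total RNA. Of the 50 called in the unlabelled part, 34 were. Genes called in both parts numbered 7. Precision differed between the parts: the median SE of a log2 change was 0.84 for labelled RNA, 0.39 for unlabelled RNA and 0.33 for total RNA. A whole-library shift was also present, since the median log2 change of all 7983 genes was 0.37 in the labelled part, -0.10 in the unlabelled part and -0.01 in total RNA. The labelled change was positive for 65.0% of genes and the unlabelled change for 39.8%. Labelled changes of single genes are therefore also given relative to 0.37. The part of this shift in the labelled calls was not tested, beyond the alternative in which the labelled part had its own scaling, where 2 genes were called.

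Among the 52 genes higher in total RNA, 48 had part tests. Of these, 7 passed in both parts, 6 in the labelled part, 16 in the unlabelled part and 19 in neither. The other 4 could not be tested in parts. The mean excess of the 48 genes in TTP-KO summed to 55782 CPM, of which 7.35% was labelled and 92.6% unlabelled. Ccl3 alone made up 48.8% of that sum, and without it the labelled share was 9.71%. Counted by gene the picture was wider: the labelled share of the excess had a median of 39.8%, from -0.12 to 89.7%. It was over 50% in 18 genes and under 5% in 12. The labelled values of the groups stood apart in 39 of the 48 genes and the unlabelled values in 42. These genes were chosen by their total RNA, and the share of all genes whose groups stood apart is not given here. Labelled change was positive for 65.0% of all genes tested in parts, so these counts are not read as particular to the 48.

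Of the gene lists, secreted factors and macrophage or lysosome genes held most of the higher genes. For the 13 secreted cytokines and chemokines higher in total RNA, the labelled share of the excess had a median of 1.84%, and 10 of them were under 10%. Their summed excess was 47461 CPM, of which 3.76% was labelled. For the 15 higher genes of the macrophage and lysosome lists with part tests, the labelled share had a median of 52.1% (13.1 to 85.5%), and 0 were under 10%. Their summed excess was 2715 CPM, of which 51.5% was labelled. For the 20 remaining higher genes with part tests the median was 37.9%. These shares describe lists chosen with earlier results known, and the difference between lists was not tested.

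**Figure D1:**
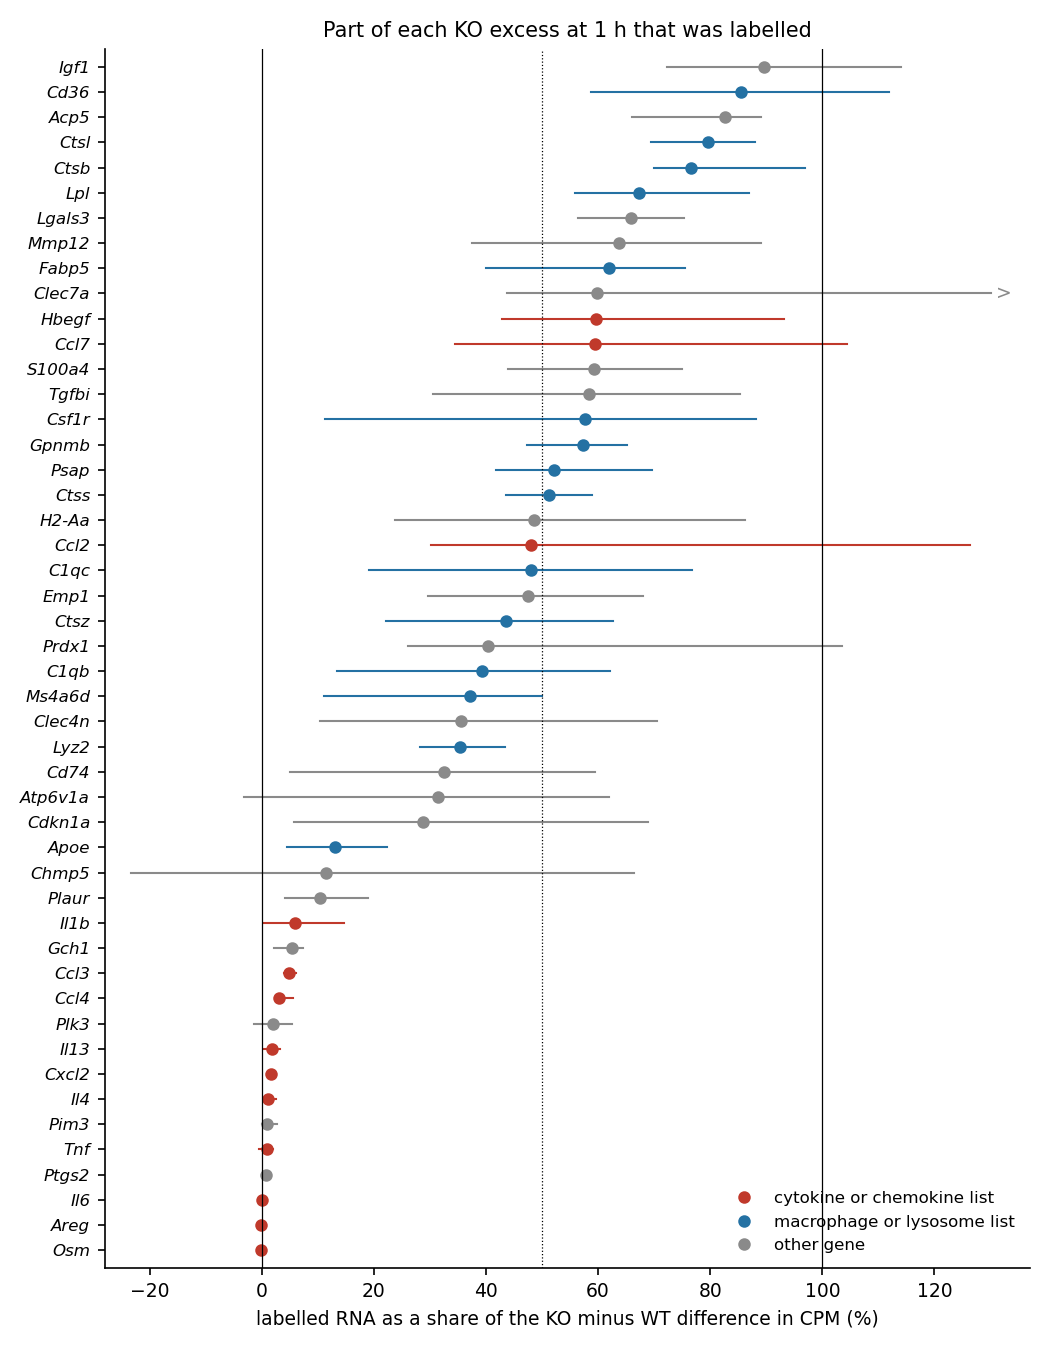
Labelled share of the TTP-KO excess (percent of the mean TTP-KO minus WT difference in CPM) for the 48 genes higher in total RNA, with bars for the range over the 9 pairs of a TTP-KO and a WT library. Secreted cytokines and chemokines sit mostly near 0, with a median of 1.84%, and macrophage and lysosome genes spread between 13.1 and 85.5%.

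**Figure D2:**
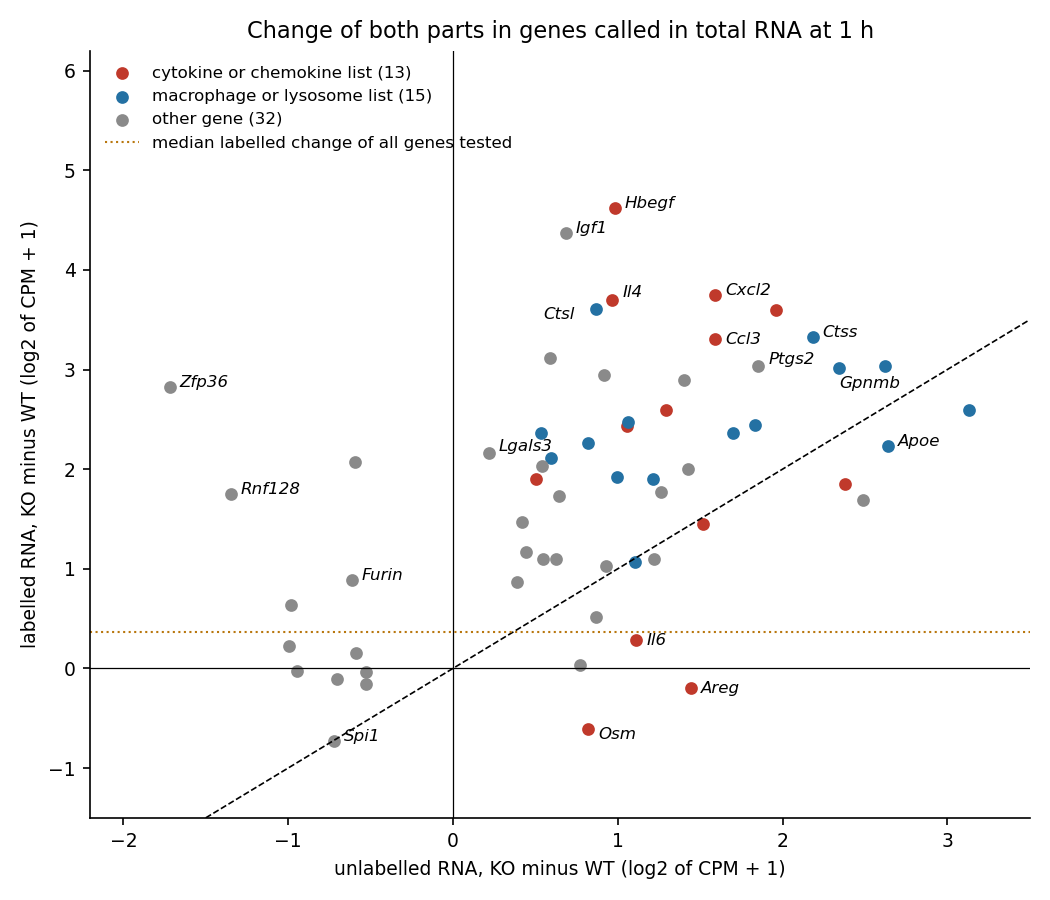
Log2 change (TTP-KO over WT, on the log2(CPM + 1) scale) in the unlabelled part and in the labelled part for the 60 genes called in total RNA that had part tests. The dashed line marks equal change and the dotted line the median labelled change of all genes, 0.37; the 12 lower genes lie on the negative side of the unlabelled axis.

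Secreted cytokines and chemokines carried their excess mainly in unlabelled RNA. Of 35 list members tested in total RNA 13 were called, all higher. Of 26 tested in parts 10 were higher in the unlabelled part and 5 in the labelled part. Over all genes tested, 0.402% were higher in total RNA, 0.313% in the unlabelled part and 0.501% in the labelled part. The list was chosen with earlier results of these data known. Il4, Il13, Il6, Tnf, Ccl3, Cxcl2 and Areg passed in the unlabelled part, and of these 7 genes Ccl3, Cxcl2 and Il4 also passed in the labelled part. All 7 were called in total RNA, nearly all of it unlabelled in both genotypes. Their unlabelled calls thus largely repeat the calls in total RNA and are no separate evidence. Hbegf and Ccl2 passed in the labelled part. Labelled amounts were small, with s4U present from day 6 to the wash per the labels. The labelled percentage of the list's median member was 2.71 in TTP-KO and 1.53 in WT, against 14.1 in TTP-KO and 10.0 in WT for the median of all genes tested in parts.

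Ccl3 encodes the chemokine MIP-1α, which attracts monocytes and lymphocytes. It had 43099, 41361 and 36151 CPM in TTP-KO, against 12240, 13883 and 12837 CPM in WT. Labelled RNA made up 1603, 1352 and 1526 CPM of this in TTP-KO and 72.2, 211 and 221 CPM in WT. Neither the totals nor the labelled values overlapped between the genotypes. The mean difference of 27217 CPM was the sum of 1326 labelled and 25891 unlabelled CPM, a labelled share of 4.87% (3.97 to 6.08% over the 9 library pairs). Unlabelled Ccl3 rose by a log2 of 1.59 ± 0.10 (limma, adjusted p = 5.12e-15). Labelled Ccl3 rose by 3.30 ± 0.57, or 2.94 above the median of all genes (limma, adjusted p = 0.00348), a call lost without WT library A (2.78). The amount was larger in the unlabelled part, and the fitted fold was larger in the labelled part without a called difference between the parts.

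Cxcl2, a neutrophil-attracting chemokine, and Il4, a type 2 cytokine that basophils release early, had the same split. Il4 had 5809, 6110 and 6718 CPM in TTP-KO, against 3923, 2767 and 2894 CPM in WT. Of these, 47.6, 29.9 and 42.3 CPM were labelled in TTP-KO and 0, 9.96 and 1.74 CPM in WT. Both the totals and the small labelled amounts stood apart. Unlabelled Il4 rose by 0.97 ± 0.12 (limma, adjusted p = 4.86e-07) and labelled Il4 by 3.70 ± 0.85, which is 3.33 above the median (limma, adjusted p = 0.0387). The labelled share of the excess was 1.20% (0.598 to 2.53%). The labelled Il4 call was lost without TTP-KO library A (3.56), B (3.89) or C (3.65) and without WT library A (2.88) or C (3.61).

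Cxcl2 had 5063, 4827 and 4687 CPM in TTP-KO and 1899, 1552 and 1387 CPM in WT. Its labelled percentage was 0.86, 1.27 and 1.51 in TTP-KO and 0, 0.53 and 0.57 in WT, again without overlap. Unlabelled Cxcl2 rose by 1.59 ± 0.11 (limma, adjusted p = 1.25e-14) and held all but 1.64% of the excess. Labelled Cxcl2 rose by 3.75 ± 0.79, or 3.38 above the median (limma, adjusted p = 0.0181), a call lost without TTP-KO library B (3.70), TTP-KO library C (3.60) or WT library A (2.69).

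For Areg, Ptgs2, Il6, Tnf and Il13 nearly all of the excess was unlabelled. No labelled difference passed for these 5 genes, and neither did the test between their parts. Areg, an epidermal growth factor receptor ligand, had 1918, 1983 and 1795 CPM in TTP-KO, against 744, 608 and 754 CPM in WT, and its labelled percentage was 0, 0.22 and 0 in TTP-KO and 0, 1.17 and 0 in WT. Ptgs2, the inducible cyclooxygenase, had 4076, 3643 and 2841 CPM in TTP-KO, against 843, 1078 and 969 CPM in WT, with 0.32, 1.06 and 0% labelled in TTP-KO and 0% in each WT library. The totals of both genes stood far apart while most labelled values were at or near 0. Unlabelled Areg rose by 1.44 ± 0.11 (limma, adjusted p = 1.05e-12) and unlabelled Ptgs2 by 1.85 ± 0.14 (limma, adjusted p = 7.54e-13). The labelled changes were -0.20 ± 0.93 for Areg and 3.04 ± 0.94 for Ptgs2 (limma, adjusted p = 0.966 and 0.168). Il6 had 4400, 4348 and 3981 CPM in TTP-KO and 2132, 1832 and 1929 CPM in WT, and labelled RNA made up 0.011% of the excess. Tnf had 582, 619 and 590 CPM in TTP-KO and 218, 200 and 202 CPM in WT, with a labelled share of 1.01%. Neither of these cytokines overlapped between the genotypes in total RNA. Il13, which acts with interleukin 4 on epithelium and smooth muscle, had 617, 782 and 918 CPM in TTP-KO and 304, 294 and 324 CPM in WT. Unlabelled Il6 rose by 1.11 ± 0.09, unlabelled Tnf by 1.52 ± 0.16 and unlabelled Il13 by 1.30 ± 0.21 (limma, adjusted p = 2.29e-12, 3.48e-09 and 0.000137). For labelled Il6 the change was 0.28 ± 0.74, for labelled Tnf 1.45 ± 0.84 and for labelled Il13 2.60 ± 0.94, and none passed (limma, adjusted p = 0.923, 0.541 and 0.248).

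**Figure D3:**
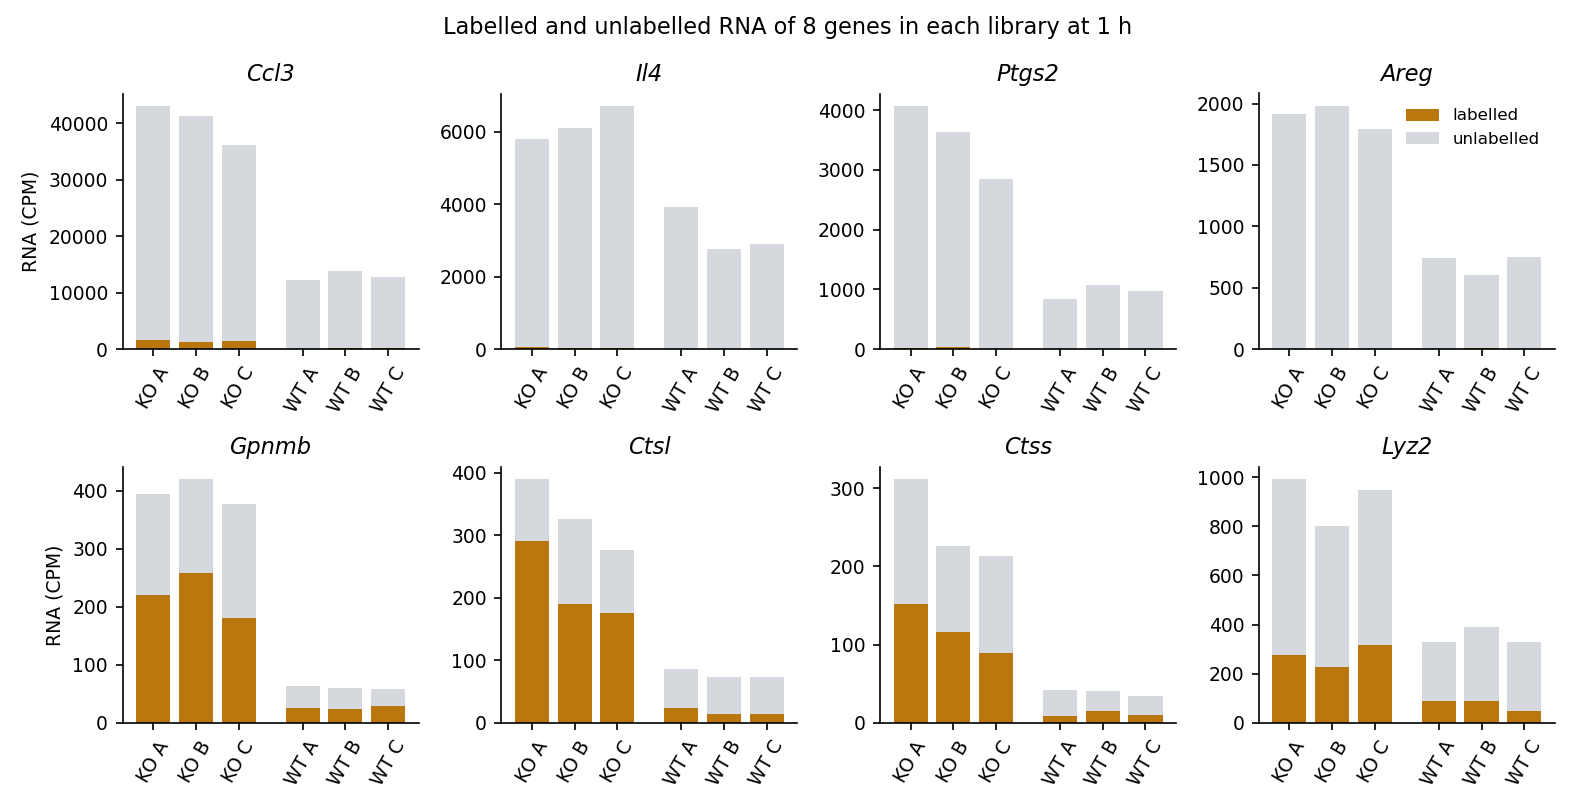
Labelled (brown) and unlabelled (grey) CPM stacked per library, TTP-KO A to C then WT A to C, for Ccl3, Il4, Ptgs2, Areg, Gpnmb, Ctsl, Ctss and Lyz2. The 4 inducible genes are grey almost throughout, with at most 4.22% labelled, whereas labelled RNA makes up 47.7 to 61.4% of Gpnmb and 58.5 to 74.8% of Ctsl in TTP-KO.

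The other cytokine and chemokine genes called in the unlabelled part were Il1b, Osm and Ccl4, the last of which is described below. Plk3, a stress-response kinase, and Plaur, the urokinase receptor, were also called there, among the further TTP targets reported in earlier work. Il1b had 946, 958 and 718 CPM in TTP-KO and 419, 428 and 375 CPM in WT, and 6.00% of its excess was labelled. Osm had 1683, 1676 and 1413 CPM in TTP-KO and 980, 924 and 800 CPM in WT, and its labelled share was -0.119%, since labelled Osm was slightly lower in TTP-KO. Plaur differed from these in being labelled in every library, at 14.3, 7.67 and 9.64% in TTP-KO and 7.71, 12.2 and 12.8% in WT. These percentages overlapped, while the Plaur totals of 291, 288 and 255 CPM in TTP-KO and 122, 118 and 118 CPM in WT did not. Unlabelled Plaur rose by 1.22 ± 0.17 (limma, adjusted p = 3.71e-06), and labelled Plaur changed by 1.10 ± 0.75 without passing (limma, adjusted p = 0.626). Of 49 earlier TTP targets tested, 15 were higher and 1, Zfp36, was lower in total RNA. In the parts, 13 of 39 were higher and 1 lower when unlabelled, and 5 were higher when labelled. The shares of all genes tested were 0.402% higher and 0.1% lower in total RNA. In the parts they were 0.313% higher and 0.313% lower when unlabelled, and 0.501% higher when labelled. This list, too, was chosen with earlier results of these data known.

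Ccl4 and Csf1, a chemokine and a growth factor of macrophages, changed least among the secreted factors chosen for the panel. Ccl4 had 26479, 28357 and 29797 CPM in TTP-KO, against 23015, 17196 and 19288 CPM in WT. The groups stood apart, but by less than those of Ccl3. Unlabelled Ccl4 rose by 0.51 ± 0.11 (limma, adjusted p = 0.013), a call lost without TTP-KO library B (0.50), TTP-KO library C (0.47), WT library B (0.41) or WT library C (0.49). Csf1 had 6538, 6032 and 5670 CPM in TTP-KO and 4674, 4978 and 4856 CPM in WT, a log2 change of 0.33 ± 0.09 that did not pass (edgeR, adjusted p = 0.0688).

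**Figure D4:**
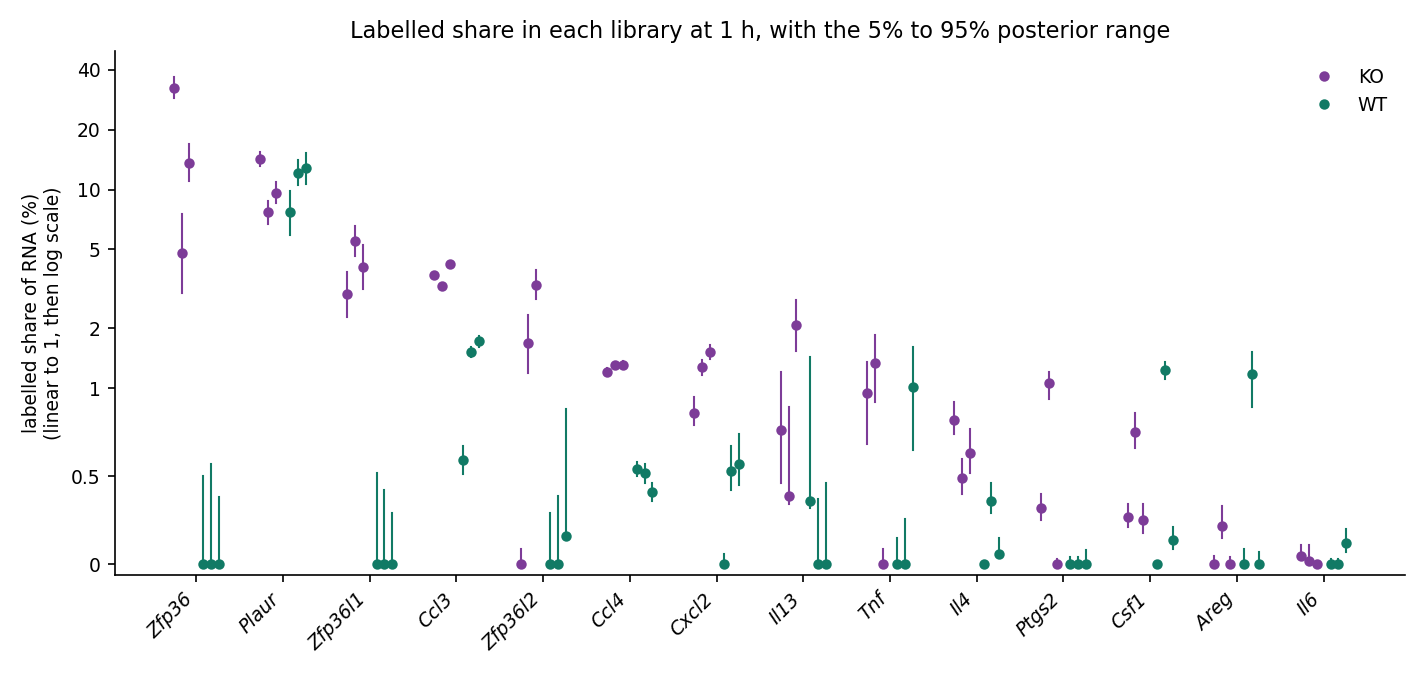
Labelled percentage of the 14 panel genes in each TTP-KO and WT library, with bars for the 5 to 95% posterior range given by the authors; the axis is linear up to 1% and logarithmic above. Apart from Plaur and Zfp36 most points lie below 5%; Zfp36 lies at 32.6, 4.77 and 13.7% in TTP-KO and at 0% in each WT library.

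Hbegf, Ccl7 and Ccl2 were the 3 of the 13 higher secreted factors with over 10% of the excess in labelled RNA, at 59.7, 59.4 and 48.1%. Hbegf, another epidermal growth factor receptor ligand, had 120, 84.0 and 79.3 CPM in TTP-KO, against 19.1, 26.3 and 44.0 CPM in WT. It was 46.2, 44.4 and 32.5% labelled in TTP-KO, against 0.11, 10.8 and 0% in WT. Neither measure overlapped. Labelled Hbegf rose by 4.62 ± 0.81, or 4.25 above the median (limma, adjusted p = 0.00348), while unlabelled Hbegf changed by 0.98 without passing (limma, adjusted p = 0.278). The test between its parts did not pass (log2 3.63, limma, adjusted p = 0.0769), so the parts were not shown to differ. Ccl2, a monocyte chemoattractant also made by macrophages, was 77.7, 30.0 and 29.3% labelled in TTP-KO and 0% in each WT library. Labelled Ccl2 rose by 3.59 ± 0.70, or 3.23 above the median (limma, adjusted p = 0.00803). Both labelled calls were lost without WT library A, at 4.31 for Hbegf and 3.60 for Ccl2. For Ccl7, its neighbour in the same chemokine family, neither part passed.

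AU-rich sequence of the kind TTP binds was looked up in the annotated 3′ untranslated regions of these genes, from GENCODE M21 on GRCm38. That build differs from GRCm39, which the submitters name, and no coordinates are given. The nonamer TTATTTATT and the heptamer TATTTAT at its core were searched on the sense strand of every annotated protein-coding transcript, counting overlapping matches. A match in each of 7 genes higher in unlabelled RNA is shown in capitals with 9 bases on either side. The match in Gpnmb, a macrophage gene called higher in both parts, is added.
Areg: atttaagtgTTATTTATTttatagctc
Cxcl2: agagttcacTTATTTATTtatctatgt
Tnf: ttgcacttaTTATTTATTatttattta
Ptgs2: tgaccatatTTATTTATTtatgtgaag
Il13: ttcttgatcTTATTTATTatggttgtg
Ccl3: atttgtgacTATTTATtctgaaaga
Il4: tatttttaaTATTTATatatttata
Gpnmb: cttctgcacTTATTTATTttgtgacag
Tnf held 5 nonamer matches and Cxcl2 held 4, while Ccl3 and Il4 held the heptamer without the nonamer. Plaur and Ccl2 held neither, nor did Apoe, Ctss, Ctsl, Lyz2, Psap and Igf1. Of other higher macrophage or lysosome genes, Lpl and Cd36 each held 1 nonamer and 2 heptamers, and Ctsb held 1 heptamer. At least 1 nonamer was present in 7 of the 25 genes higher in the unlabelled part (28%), in 4 of the 40 higher in the labelled part (10%), in 1 of the 25 lower in the unlabelled part (4%) and in 9.11% of all genes tested in parts. The 7 genes called higher in both parts, Gpnmb among them, count in both of the first 2 sets. The heptamer was present in 16 of 25 (64%), 13 of 40 (32.5%) and 8 of 25 (32%) of these sets and in 32.7% of all genes tested in parts. A match describes the letters of the annotated transcript and is not evidence of binding.

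Macrophage and lysosome genes were the other large group higher in TTP-KO. Labelled RNA was 1398 CPM of their summed excess and 1783 CPM of that of the 13 secreted factors, so that the larger labelled share given above came with a smaller labelled amount. Of 23 macrophage markers tested, 9 were higher and 0 lower in total RNA, with a median log2 change of 1.82. Of 14 tested in parts, 3 were higher when labelled and 4 when unlabelled. Of 24 lysosomal protease and lipid handling genes, a list that shares Gpnmb, Apoe, Ctss and Fabp4 with the markers, 11 were higher and 0 lower. Of 20 tested in parts, 7 were higher when labelled and 4 when unlabelled. Over all genes tested, 0.402% were higher in total RNA, 0.501% in the labelled part and 0.313% in the unlabelled part. Both lists follow earlier results of these data, so their counts describe the lists and are no separate evidence. The labelled part of the summed macrophage list ran from 946 to 990 CPM in TTP-KO and from 194 to 248 CPM in WT, and that of the lysosome list from 1699 to 1891 CPM in TTP-KO and from 352 to 434 CPM in WT. These summed ranges did not overlap. Labelled RNA made up 41.5% of the difference in the macrophage sum and 87.2% of that in the lysosome sum. Csf1r, the receptor that defines the mononuclear phagocyte lineage, had 85.9 to 114 CPM in TTP-KO and 32.4 to 37.2 CPM in WT. The part of macrophage marker RNA in the other genotype differences was not tested.

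Gpnmb, a glycoprotein of phagocyte lysosomes and melanosomes, rose in both parts. It had 394, 420 and 378 CPM in TTP-KO, against 62.7, 60.4 and 58.2 CPM in WT. Labelled RNA made up 220, 258 and 180 CPM in TTP-KO and 25.8, 23.6 and 28.8 CPM in WT, and unlabelled RNA 174, 162 and 198 CPM in TTP-KO and 36.9, 36.8 and 29.4 CPM in WT. Both parts stood apart. Labelled Gpnmb rose by 3.01 ± 0.44, or 2.65 above the median of all genes (limma, adjusted p = 0.00048), and unlabelled Gpnmb by 2.34 ± 0.23 (limma, adjusted p = 7.54e-10). The labelled share of the excess was 57.4% (47.4 to 65.1%), and the test between the parts did not pass (limma, adjusted p = 0.855). Gpnmb was the only gene called in the labelled part when WT library A was left out.

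Ctss, Lyz2 and Psap were the remaining members called in both parts. Ctss, a cysteine protease of antigen-presenting cells, had 312, 226 and 214 CPM in TTP-KO, against 42.4, 41.0 and 33.8 CPM in WT, with 51.3% of the excess labelled. Lyz2, the lysozyme of myeloid cells, had 992, 800 and 949 CPM in TTP-KO, against 331, 390 and 328 CPM in WT, with 35.3% labelled. Psap, the precursor of the saposins that help degrade sphingolipids, had 863, 768 and 690 CPM in TTP-KO, against 442, 412 and 404 CPM in WT, with 52.1% labelled. None of the 3 genes overlapped in total RNA between the genotypes. Labelled Ctss rose by 3.33 ± 0.65, Lyz2 by 1.90 ± 0.41 and Psap by 2.36 ± 0.42, which are 2.96, 1.54 and 1.99 above the median (limma, adjusted p = 0.00803, 0.0247 and 0.00403). Unlabelled Ctss rose by 2.18 ± 0.27, Lyz2 by 1.22 ± 0.14 and Psap by 0.53 ± 0.13 (limma, adjusted p = 4.86e-07, 4.84e-08 and 0.0251). Without WT library A the labelled changes were 3.15, 2.05 and 2.21 and none was called. The labelled Ctss call was also lost without TTP-KO library A (3.14), and the labelled Lyz2 call without TTP-KO library A (1.89), TTP-KO library C (1.79) or WT library C (1.62). The unlabelled Psap call was lost without TTP-KO library A (0.48), TTP-KO library B (0.51), WT library B (0.52) or WT library C (0.49).

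Ctsl and Ctsb of these lists, and Igf1 outside them, passed in the labelled part. Ctsl, a lysosomal endopeptidase, had 292, 191 and 175 labelled CPM in TTP-KO, against 23.5, 14.2 and 13.7 in WT. Its unlabelled part had 98.2, 135 and 102 CPM in TTP-KO and 61.7, 59.2 and 59.7 CPM in WT. The groups stood apart in both parts, by much more in the labelled one. Labelled Ctsl rose by 3.60 ± 0.67, or 3.24 above the median (limma, adjusted p = 0.00673), and unlabelled Ctsl changed by 0.87 ± 0.27 without passing (limma, adjusted p = 0.163). The test between the parts did not pass (log2 2.74, limma, adjusted p = 0.322), and the labelled share of the excess was 79.7% (69.5 to 88.0%). Ctsb, a related protease, was 58.0, 57.0 and 64.3% labelled in TTP-KO and 36.4, 33.5 and 32.1% labelled in WT, with 76.5% of its excess labelled. The labelled percentages of Ctsb did not overlap. Labelled Ctsb rose by 2.11 ± 0.41, or 1.75 above the median, and unlabelled Ctsb changed by 0.60 ± 0.22 without passing (limma, adjusted p = 0.00803 and 0.279). Igf1, insulin-like growth factor 1, had the highest labelled share of the excess, 89.7%, from totals of 61.9, 51.4 and 27.7 CPM in TTP-KO and 8.03, 6.86 and 2.16 CPM in WT. Labelled Igf1 rose by 4.37 ± 0.84, or 4.00 above the median (limma, adjusted p = 0.00803). Without WT library A the labelled calls of Ctsl (3.84), Ctsb (2.17) and Igf1 (3.94) were lost.

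Apoe, the lipid carrier of macrophages, passed in the unlabelled part. It had 316, 318 and 279 CPM in TTP-KO, against 54.8, 46.4 and 50.0 CPM in WT. Labelled RNA made up 14.2, 8.30 and 19.7% of it in TTP-KO and 16.3, 30.3 and 7.08% in WT. The totals stood apart and the percentages overlapped. Unlabelled Apoe rose by 2.64 ± 0.26 (limma, adjusted p = 7.54e-10), labelled Apoe changed by 2.23 ± 0.88 without passing (limma, adjusted p = 0.296), and 13.1% of the excess was labelled (4.54 to 22.4%). The changes of its parts were not shown to differ (log2 -0.41). For 8 further members, among them the fatty acid receptor Cd36 with 85.5% of its excess labelled, neither part passed.

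Genes lower in TTP-KO in total RNA were mostly lower in the unlabelled part. Of the 13, 11 passed in the unlabelled part, 0 in the labelled part, and Ltb4r1, a leukotriene B4 receptor, in neither. Without 1 library the total RNA calls were lost for Ltb4r1 and E2f2 (5 of the 6 libraries each, -0.76 to -0.85 and -0.75 to -0.87), Asb2 and Slc6a9 (4 each, -0.45 to -0.55 and -0.73 to -0.89) and Ccnd3 (3 libraries, -0.34 to -0.54). The last of the 13, Dhodh, named after its values were seen, had no part test. Over the 12 with part tests the mean difference summed to -3068 CPM, and the labelled share of it was -1.86%, since labelled RNA summed slightly higher in TTP-KO. In 6 of the 12 genes labelled CPM was higher in TTP-KO. Unlabelled values of the groups stood apart in all 12, and labelled values stood apart below WT in 1, Spi1. As the 12 were chosen by lower total RNA, most of it unlabelled, the separation of their unlabelled values is no separate evidence. The median labelled change of all genes was 0.37, and the share of all genes whose groups stood apart is not given here.

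Furin, a proprotein convertase, had 3062, 3859 and 3979 CPM in TTP-KO, against 5727, 4713 and 5791 CPM in WT. It was 3.96, 3.19 and 4.75% labelled in TTP-KO and 1.76, 2.19 and 0.73% labelled in WT. The totals were lower and the labelled percentages higher in TTP-KO, both without overlap. Unlabelled Furin fell by a log2 of 0.61 ± 0.11 (limma, adjusted p = 0.000608), while labelled Furin changed by 0.88 without passing (limma, adjusted p = 0.706). Rnf128, a ubiquitin ligase first described in anergic T cells, had 68.6, 55.0 and 70.7 CPM in TTP-KO, against 118, 96.9 and 132 CPM in WT. It was 42.3, 35.2 and 34.7% labelled in TTP-KO and 21.6, 2.12 and 3.10% labelled in WT. Again total RNA was lower and the labelled percentage higher, without overlap. Unlabelled Rnf128 fell by 1.35 ± 0.25 (limma, adjusted p = 0.0014), and its labelled change of 1.75 and the test between its parts, 3.10, did not pass (limma, adjusted p = 0.402 and 0.185). The Rnf128 call in total RNA, though not that in the unlabelled part, was lost without TTP-KO library A (-0.88) or B (-0.73) and without WT library A (-0.82) or C (-0.73). Spi1, the myeloid transcription factor PU.1, had 259, 288 and 331 CPM in TTP-KO, against 510, 431 and 509 CPM in WT. Its labelled percentages overlapped, at 15.7, 13.0 and 15.8 in TTP-KO and 17.0, 13.98 and 14.02 in WT. Unlabelled Spi1 fell by 0.72 ± 0.14 (limma, adjusted p = 0.00195), and the labelled change of -0.73 did not pass (limma, adjusted p = 0.752). Unlabelled RNA of the cell cycle genes Ccnd3 and E2f2, of Asb2, Glipr2 and of the glycine transporter Slc6a9 also fell, by 0.53, 0.95, 0.59, 0.99 and 0.98 (limma, adjusted p = 0.0147, 0.0158, 0.0117, 0.00478 and 0.022). These 5 calls were lost without WT library A, at -0.37, -0.97, -0.52, -0.91 and -0.78. Those of Ccnd3 (-0.45), E2f2 (-0.93), Asb2 (-0.56) and Slc6a9 (-0.87) were also lost without TTP-KO library A, that of Slc6a9 without TTP-KO library C (-0.95) or WT library B (-0.94), and that of E2f2 without WT library C (-0.90).

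Labelled RNA was also called different for genes without a call in total RNA, which does not show that their totals were equal. Of the 40 genes higher in labelled RNA, 19 had totals that overlapped between the genotypes. Of the 43 genes called in the labelled part, 30 were not called in total RNA, and 27 of these were higher in TTP-KO. Many rested on values at 0: of the 40 genes with more labelled RNA in TTP-KO, 31 were at 0 in at least 1 WT library, 25 were at 0 in WT library A and 11 were at 0 in all 3. Adora2b, the low-affinity adenosine receptor, had 578, 580 and 581 CPM in TTP-KO and 615, 627 and 575 CPM in WT. It was 3.58, 4.43 and 1.14% labelled in TTP-KO, against 0, 0.18 and 0% in WT. The totals overlapped and the labelled percentages did not. Labelled Adora2b rose by 3.67 ± 0.72, or 3.31 above the median (limma, adjusted p = 0.00865), and more than unlabelled Adora2b (log2 3.78 ± 0.57, limma, adjusted p = 0.00208). The labelled call was lost without TTP-KO library B (3.33) or WT library A (3.49). Stx3, a syntaxin of vesicle fusion, was 6.98, 7.21 and 14.4% labelled in TTP-KO and 0% in each WT library. Bhlhe40, a transcriptional repressor of the clock and of activated lymphocytes, was 2.18, 1.46 and 4.14% labelled in TTP-KO and 0% in each WT library. In neither gene did the percentages overlap. The labelled against unlabelled test gave 4.20 ± 0.64 for Stx3 and 3.43 ± 0.57 for Bhlhe40 (limma, adjusted p = 0.00208 and 0.00612), against a median of 0.47 over all genes. Leaving out any 1 of the 6 libraries lost neither call in that test, but with the 6 libraries alone it called 0 genes. The labelled call of Stx3 was lost without TTP-KO library C (3.52) or WT library A (3.73). That of Bhlhe40 was lost without TTP-KO library C (2.925) or WT library A (3.27), B (3.27) or C (3.27).

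The remaining genes in which labelled and unlabelled RNA moved by different folds were Socs1, Zfp598, Ddt and Fam174b. Socs1, a cytokine signalling inhibitor, was 2.47, 3.83 and 8.67% labelled in TTP-KO and 0% in each WT library, from totals of 138, 220 and 173 CPM in TTP-KO and 240, 150 and 203 CPM in WT. Its labelled against unlabelled call (log2 3.36 ± 0.62, limma, adjusted p = 0.0205) was lost without TTP-KO library C (2.89) or WT library A (3.21). That of Zfp598 (log2 4.42, limma, adjusted p = 0.0244) was lost without TTP-KO library B (4.47) or C (4.07) and without WT library A (4.57), B (4.40) or C (4.32). In 6 of the 8 genes called in this test, all 3 WT libraries were at 0 in the labelled part. The median log2 change of all genes in this test was 0.47. Nr4a2, an immediate early nuclear receptor, also rose in labelled RNA (log2 2.63, or 2.26 above the median, limma, adjusted p = 0.0287), with 4.55, 6.94 and 11.1% labelled in TTP-KO and 0, 0 and 1.34% in WT. That call was lost without TTP-KO library B (2.43) or C (2.54) and without WT library A (2.47) or B (2.46). Labelled RNA was lower in 3 genes, Rnf144a, Esrra and Uty. The labelled Esrra change of -2.69 (limma, adjusted p = 0.0287) was not called without TTP-KO library A (-2.68), B (-2.70) or C (-2.68), nor without WT library A (-2.70) or C (-2.46). Rnf144a, a ubiquitin ligase, was 0.31, 0 and 11.5% labelled in TTP-KO, against 69.1, 36.6 and 33.7% in WT, a log2 change of -3.77 ± 0.80, or -4.14 relative to the median (limma, adjusted p = 0.0208). The call was lost without TTP-KO library A (-3.53) or B (-3.46) and without WT library A (-3.51) or B (-3.80).

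In the unlabelled part, 16 genes were called without a call in total RNA, 14 of them lower. Akap9, a scaffold of the centrosome and Golgi, had 9.41, 12.6 and 0.358 CPM in TTP-KO, against 22.2, 26.4 and 25.8 CPM in WT. Tph1, which starts serotonin synthesis, had 17.0, 0.251 and 9.68 CPM in TTP-KO and 14.8, 17.4 and 18.4 CPM in WT. Both were spread widely among TTP-KO libraries, and Tph1 overlapped between the genotypes. Unlabelled Akap9 fell by 3.10 ± 0.50 (limma, adjusted p = 9.14e-05). Unlabelled Tph1 fell by 2.73 (limma, adjusted p = 0.00439), a call lost without TTP-KO library C (-2.19).

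Among RNA decay regulators 1 of 46 was called in total RNA, Zfp36. Its paralogs encode related AU-rich element binding proteins. Zfp36l1 had 180, 156 and 180 CPM in TTP-KO, against 126, 84.7 and 126 CPM in WT, and was 2.97, 5.51 and 4.06% labelled in TTP-KO and 0% in each WT library. Neither overlapped, but neither the total (log2 0.61, edgeR, adjusted p = 0.235) nor the labelled part (2.99, limma, adjusted p = 0.0522) passed. Zfp36l2 had 314, 333 and 369 CPM in TTP-KO and 284, 241 and 232 CPM in WT (log2 0.42, edgeR, adjusted p = 0.163). Of 43 immediate early genes 0 were higher and 1, Zfp36, lower in total RNA. Of 38 tested in parts 2 were higher when labelled, against 0.501% of all genes tested in parts. Of 30 NF-kB targets 0 were called in total RNA. Ribosomal protein genes had a median labelled change of 0.35 and respiratory chain genes of 0.54, close to the 0.37 of all genes, and 0 of 72 and 0 of 44 were called in total RNA. As 0.502% of all genes tested were called in total RNA, a count of 0 in lists of these sizes says little.

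The 1 hour differences were set against those at 0 hours, from the same fits. The genotype difference at 1 hour was called different from that at 0 hours for 8 genes in total RNA (0.0618%), for 8 in the unlabelled part (0.1%) and for 5 in the labelled part (0.0626%). Total Il4 differed by a log2 of 0.03 at 0 hours and by 0.93 more at 1 hour (edgeR, adjusted p = 0.00235). Total Areg differed by 0.45 at 0 hours and by 0.98 more at 1 hour (edgeR, adjusted p = 0.000726). Ccl3 differed by 0.95 at 0 hours and by 0.68 more at 1 hour (edgeR, adjusted p = 0.00378), and Plaur by 0.13 and by 1.09 more (edgeR, adjusted p = 0.0186). The same 4 genes passed in the unlabelled part, with 0.97 for Il4, 1.00 for Areg, 0.73 for Ccl3 and 1.14 for Plaur, and Cxcl2 passed there as well with 0.74 (limma, adjusted p = 0.00468, 0.00133, 0.0248, 0.0248 and 0.0248). Areg passed in both measures, and Il4 and Ccl3 in total RNA, whichever of the 6 libraries at 1 hour was left out. Unlabelled Il4 did not pass without WT library C (0.91). Unlabelled Ccl3 did not pass without TTP-KO library A (0.68), TTP-KO library B (0.70), WT library A (0.69) or WT library C (0.72), nor unlabelled Cxcl2 without TTP-KO library A (0.70), TTP-KO library B (0.74), WT library B (0.71) or WT library C (0.63). Total Plaur did not pass without TTP-KO library A (1.06), TTP-KO library B (1.07) or WT library C (1.09), and unlabelled Plaur passed when TTP-KO library C was left out and not when any other was, at 1.09 to 1.18. In the labelled part 0 of the 14 panel genes passed this test (limma, smallest adjusted p = 0.44), with a median SE of 1.17.

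Mean labelled CPM of the 9 secreted factors of the panel was lower at 1 hour than at 0 hours in both genotypes, a step between times that was not tested. Mean labelled Ccl3 at 1 hour was 40.9% of that at 0 hours in TTP-KO and 20.8% in WT. For Il4 it was 48.4% in TTP-KO and 13.1% in WT, for Il13 27.9% in TTP-KO and 1.18% in WT, for Cxcl2 22.9% in TTP-KO and 18.2% in WT, for Ccl4 18.2% in TTP-KO and 13.7% in WT, and for Tnf 11.6% in TTP-KO and 6.13% in WT. The order was the reverse for Areg, with 11.4% in TTP-KO and 63.8% in WT, for Csf1, with 12.4% in TTP-KO and 34.7% in WT, and for Il6, with 0.35% in TTP-KO and 1.60% in WT. Several percentages rested on labelled amounts near 0 or widely spread at 1 hour (mean ± SD). Areg had 1.45 ± 2.52 CPM in TTP-KO and 2.37 ± 4.11 in WT, and Il6 had 1.02 ± 1.11 and 0.77 ± 1.34. Csf1 had 25.7 ± 17.0 and 22.7 ± 33.6 CPM. In WT, Il13 had 0.36 ± 0.63 and Il4 3.90 ± 5.32 CPM. The percentages had no common order, but the reverse order of Areg, Csf1 and Il6 is not read as a pattern. For none of the 9 was the difference called. The change between times differed by 1.14 ± 0.80 for Ccl3, 2.27 ± 1.20 for Il4 and -2.36 ± 1.05 for Il6 (limma, adjusted p = 0.803, 0.668 and 0.548). Other secreted factors, chosen after their values were seen, did not all decline: labelled Hbegf at 1 hour was 136.9% of that at 0 hours in TTP-KO and 32.3% in WT, and labelled Ccl9 116% in TTP-KO and 124% in WT. The macrophage and lysosome genes were already higher at 0 hours, by 3.03 for Gpnmb, 2.78 for Apoe, 2.61 for Ctss, 2.15 for Ctsl and 1.02 for Lyz2 in total RNA. None of the 15 with part tests passed the test of 1 hour against 0 hours in total RNA, the labelled or the unlabelled part. Labelled Gpnmb at 1 hour was 72.4% of that at 0 hours in TTP-KO and 110% in WT, and labelled Lyz2 was 95.9% in TTP-KO and 88.2% in WT.

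**Figure D5:**
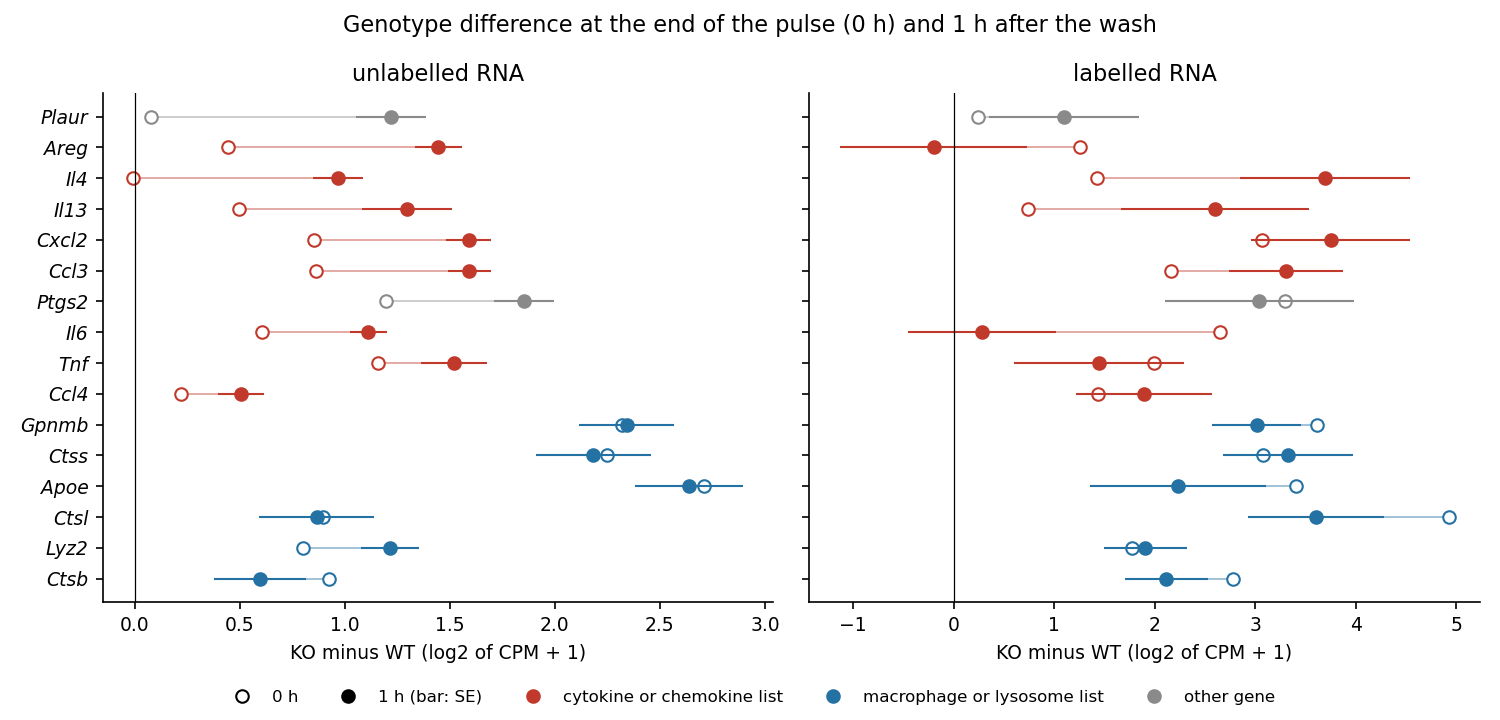
TTP-KO minus WT log2 change at 0 hours (open) and 1 hour (filled, bars are SE) for 16 genes, unlabelled part on the left and labelled part on the right. The unlabelled points of Il4, Areg, Plaur, Ccl3 and Cxcl2 lie further to the positive side at 1 hour, while Gpnmb, Ctss and Apoe are high at both times.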

How the data were processed

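RNA was measured by metabolic labelling and 3′ tag sequencing (SLAM-seq, QuantSeq 3′ libraries) in 24 libraries, 3 for each of 8 groups of genotype and time. Per the labels' protocols, RNA was alkylated with 10 mM iodoacetamide for 15 minutes at 50 °C, and 65 ng went into each library. Per the submitters' processing notes, cutadapt 3.5, STAR 2.7.10a, SAMtools and GRCm39 were used, and the design text names GRAND-SLAM. The deposited table gives, per the file headers, an estimated count of reads per gene and library (12.8% of the values are not whole) and the fraction of new RNA as the mode of its posterior, with bounds. Its 48 columns of normalized or other values per sample were not used. The table lists 15737 genes and 0 mitochondrial genes.

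Reads were rounded, genes filtered with filterByExpr (12936 kept) and scaled by TMM in edgeR 4.0.16 (R 4.3.3). Total RNA was tested with edgeR's quasi-likelihood test. Labelled and unlabelled CPM were tested on log2(CPM + 1) with limma 3.58.1, as was the log2 ratio of both, in 7983 genes with a mean of at least 5 CPM and a ratio in every library. A fold change on this scale understates the change of low genes. Fits used all 24 libraries, adjusted p-values follow Benjamini and Hochberg over all genes tested, and a call means an adjusted p under 0.05. A part's share of a difference is its mean difference divided by that of total CPM, with its range over the 9 pairs of libraries. The test steps were checked on simulated data. DESeq2 1.42.0, other pseudocounts, scalings and filters, and left-out libraries were tried as alternatives.

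The column letters A, B and C were read as replicates 1, 2 and 3, which the labels do not state; no value depends on it. Named genes were a panel of 14, the largest changes among called genes whose groups do not overlap, the smallest p-values among genes called in 1 part or in the test between parts, and called list members. The panel, the lists and the comparison were chosen with earlier results of these data known, and the macrophage and lysosome lists follow such results. Within each genotype at 1 hour, no 2 libraries held repeated data. Depth ran from 14689038 to 19842418 reads in the 6 libraries; the deposited ratios carry their own counting error, and the labelled part of a low gene rests on few converted reads.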

Additional observations from a re-analysis of the deposited data

Results flagged for a closer look

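For 7 named genes the genotype difference at 1 hour differed from that at 0 hours, by the test of the difference itself over all genes. The values are the log2 difference at 1 hour minus that at 0 hours. In total RNA they were 0.98 for Areg, 0.93 for Il4, 0.68 for Ccl3 and 1.09 for Plaur. In the unlabelled part they were 1.00 for Areg, 0.97 for Il4, 0.73 for Ccl3, 0.74 for Cxcl2 and 1.14 for Plaur, and -3.43 for Akap9. In the labelled part the value was -4.60 for Esrra (limma, adjusted p = 0.0322), a nuclear receptor of mitochondrial metabolism. Esrra had 12.3, 13.7 and 13.8 CPM in TTP-KO and 20.6, 15.4 and 10.0 CPM in WT, of which 0, 0.21 and 0% were labelled in TTP-KO and 26.2, 24.8 and 79.1% in WT. Its total RNA overlapped between the genotypes. The call was lost under the replicate block and in 3 further settings in which no gene was called, and Esrra was not tested at a minimum of 20 CPM. The Akap9 call (limma, adjusted p = 0.0248) was lost without TTP-KO library A (-3.30), TTP-KO library C (-2.99), WT library A (-3.46) or WT library C (-3.27).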

How the results depend on the processing

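The unlabelled calls held better than the labelled ones. For the unlabelled part, with 50 genes called, the alternatives other than leaving out a library gave 38 to 53 and leaving out each library in turn 36 to 50, and 30 to 35 of the 50 genes were shared in the latter. For the labelled part, with 43 called, there were 17 at a pseudocount of 0.2, 20 with library size scaling, 7 with the 6 libraries alone, 5 with edgeR on estimated reads, 2 with the part's own scaling and 1 to 31 with a library left out (1 without WT library A). For the test between the parts, with 8 called, there were 28 at a pseudocount of 0.2, 4 with library medians centred, 0 by limma with the 6 libraries alone (596 at an unadjusted p under 0.05) and 5 to 31 with a library left out. For total RNA, with 65 called, DESeq2 gave 199, no filter 108, the 6 libraries alone 101 and leaving out a library 52 to 57. For the difference at 1 hour against 0 hours, DESeq2 gave 104 genes against 8 in total RNA. In the labelled part, with 5, that comparison gave 1 at a pseudocount of 0.2, 18 at 5 and 2 to 10 with a library left out. It gave 1 with library size scaling and 0 with the posterior mean ratio, with edgeR on estimated reads, with the part's own scaling and at a minimum of 20 CPM (598, 295, 430 and 375 at an unadjusted p under 0.05), so Esrra was not called there. In total RNA leaving out a library gave 5 to 10, and in the unlabelled part, with 8, it gave 1 to 7. The cause of these shifts was not tested. The number of genes with over 50% of their excess labelled, 18, lay between 17 and 22 throughout.

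The letters showed no pairing in total RNA at 1 hour. Deviations from the group mean correlated, between the TTP-KO and the WT library of a letter, at -0.04 for A, 0.005 for B and -0.002 for C. Whether a letter stands for a shared mouse or culture is not stated in the labels and cannot be settled by these values. With the letter as a replicate block, 76 genes were called in total RNA, 21 in the labelled part, 45 in the unlabelled part and 7 in the test between the parts. For 1 hour against 0 hours the block gave 8 genes in total RNA, 7 in the unlabelled part and 0 by limma in the labelled part (618 at an unadjusted p under 0.05). Of 1814 values of single genes under an alternative, 1500 kept direction and call, 298 lost the call, 10 gained it and 6 changed sign. The sign changes were in total RNA of genes with no call there: Esrra (0.062) and Socs1 (0.0070) without WT library A, Nr4a2 without TTP-KO library B (-0.052), and Zfp598 under the block (-0.041), without TTP-KO library A (-0.26) and without WT library A (-0.11). With a library left out these totals ran from -0.44 to 0.062 for Esrra, -0.052 to 0.42 for Nr4a2, -0.34 to 0.0070 for Socs1 and -0.26 to 0.34 for Zfp598. Precision was lowest in the labelled part, where the median SE was 0.84 against 0.39 in the unlabelled part.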
